A study of Mus musculus with 6 samples.

Results

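The genes described here are the 103 named genes whose transcripts the arrays detected after transfection of miR-29 and did not detect after a control transfection. A gene was included where a probe of it was well above background, by the flag of the scanner software, on all 3 miR-29 arrays, while no probe of it had that flag on any of the 3 control arrays. The genes were thus selected on the detection flags of these same 6 arrays. Olfactory receptor genes with Olfr symbols were left out. The 103 were 0.59% of the 17458 named genes on the array. Because of this choice, a higher signal after miR-29 was built in, and the differences below are descriptions without a test.

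The samples were primary astrocytes, the star-shaped glial cells of the brain, from the cerebral cortex of C57BL/6 mouse embryos at day 18, grown from a purchased culture. At 3 weeks after plating, the miR-29 group was transfected with synthetic precursors (miR-29a, 29b and 29c in a molar ratio of 1:2:1), and the control group with a negative control precursor, both at 80 nM, and RNA was taken 48 h later. Each group held 3 one-colour Agilent arrays. The labels describe the replicates as repeated extractions and name no separate cultures, so p-values given for other genes cover the spread among these arrays alone, and part or all of it may be technical. All 3 miR-29 arrays and 1 control array lay on 1 slide, and the other 2 control arrays lay on another.

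MicroRNAs are short RNAs that guide the Argonaute silencing complex to messenger RNAs through pairing of a seed near their 5′ end, which lowers the stability and translation of the target. The miR-29 family is abundant in brain, where it rises with maturation, and is best known for lowering collagens and other matrix proteins and the DNA methyltransferases Dnmt3a and Dnmt3b. A transcript that is higher after a microRNA is added is usually regarded as an indirect effect, since direct targets fall. The mature sequences of the transfected family, from RefSeq (GRCm38.p6), show the seed (bases 2 to 8) in capitals. All 3 share the seed, and they also match at further bases.
mmu-miR-29a-3p: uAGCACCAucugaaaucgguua
mmu-miR-29b-3p: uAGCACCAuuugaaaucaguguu
mmu-miR-29c-3p: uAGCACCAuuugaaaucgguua
They lie at chr6:31062673-31062694 on the minus strand (miR-29a), chr1:195037091-195037113 on the plus strand (miR-29b, from the Mir29b-2 gene) and chr1:195037600-195037621 on the plus strand (miR-29c).

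The astrocyte label was checked against its markers. Of 16 astrocyte markers, 15 were well above background on all 6 arrays, and Gjb6, a gap junction protein, was so on no array. Of 13 markers of microglia and macrophages, 8 were detected on no array (Aif1, Cx3cr1, Trem2, Ptprc, Fcgr1, Adgre1, C1qa and C1qc) and 4 on all 6 (Csf1r, P2ry12, Tmem119 and C1qb). Markers of other cells were detected on all 6 arrays as well, with 13 of 18 for neurons, 11 of 13 for the oligodendrocyte lineage and 13 of 16 for fibroblasts, meninges and mural cells. The share of spots well above background was 65.3% to 67.3% after miR-29 and 62.5% to 66.2% in control. Of 153 negative control spots per array, 0 were well above background on each miR-29 array, and 0, 0 and 1 on the control arrays. Signals are given below as normalized signal, the background-subtracted intensity of a probe after scaling each array to 1 common 75th percentile. The detection limit, which is the lowest normalized signal that carried the flag on an array, was 9.18, 9.01 and 9.78 on miR-29 arrays 1 to 3 and 10.96, 9.90 and 8.74 on control arrays 1 to 3. The limit of control array 1 was the highest of the 6.

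Most named genes gave no such contrast. On all arrays of both groups 13059 genes were detected (74.8%), on none 3168 (18.1%), and 1093 were in between (6.26%). The reverse pattern, detected on all control arrays and on no miR-29 array, was found for 35 genes. The median difference of these 35 was -1.45 on the log2 scale. Of 891 Olfr genes, 240 were flagged on at least 1 array and 123 on all 6, and 0 were detected only after miR-29.

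The 103 genes lay close to the detection limit. Their median normalized signal was 15.5, 16.4 and 15.7 on miR-29 arrays 1 to 3, against 7.27, 8.37 and 6.999 on control arrays 1 to 3. In 17 genes every miR-29 value was at least 2 times the limit of its array, and in 48 the lowest miR-29 value was under 1.5 times the limit. Of the 309 control values, 244 were under the limit of their own array. A transcript under the limit was still often measurable: 298 of the 309 control values (96.4%) were positive and significant against background by the scanner software's weaker flag. For 92 of the 103 genes this held on all 3 control arrays, so "detected only after miR-29" means passing the stricter flag and does not mean absent from control cells. In bulk RNA from a culture, fewer cells with a transcript and less transcript per cell cannot be told apart.

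**Figure D1:**
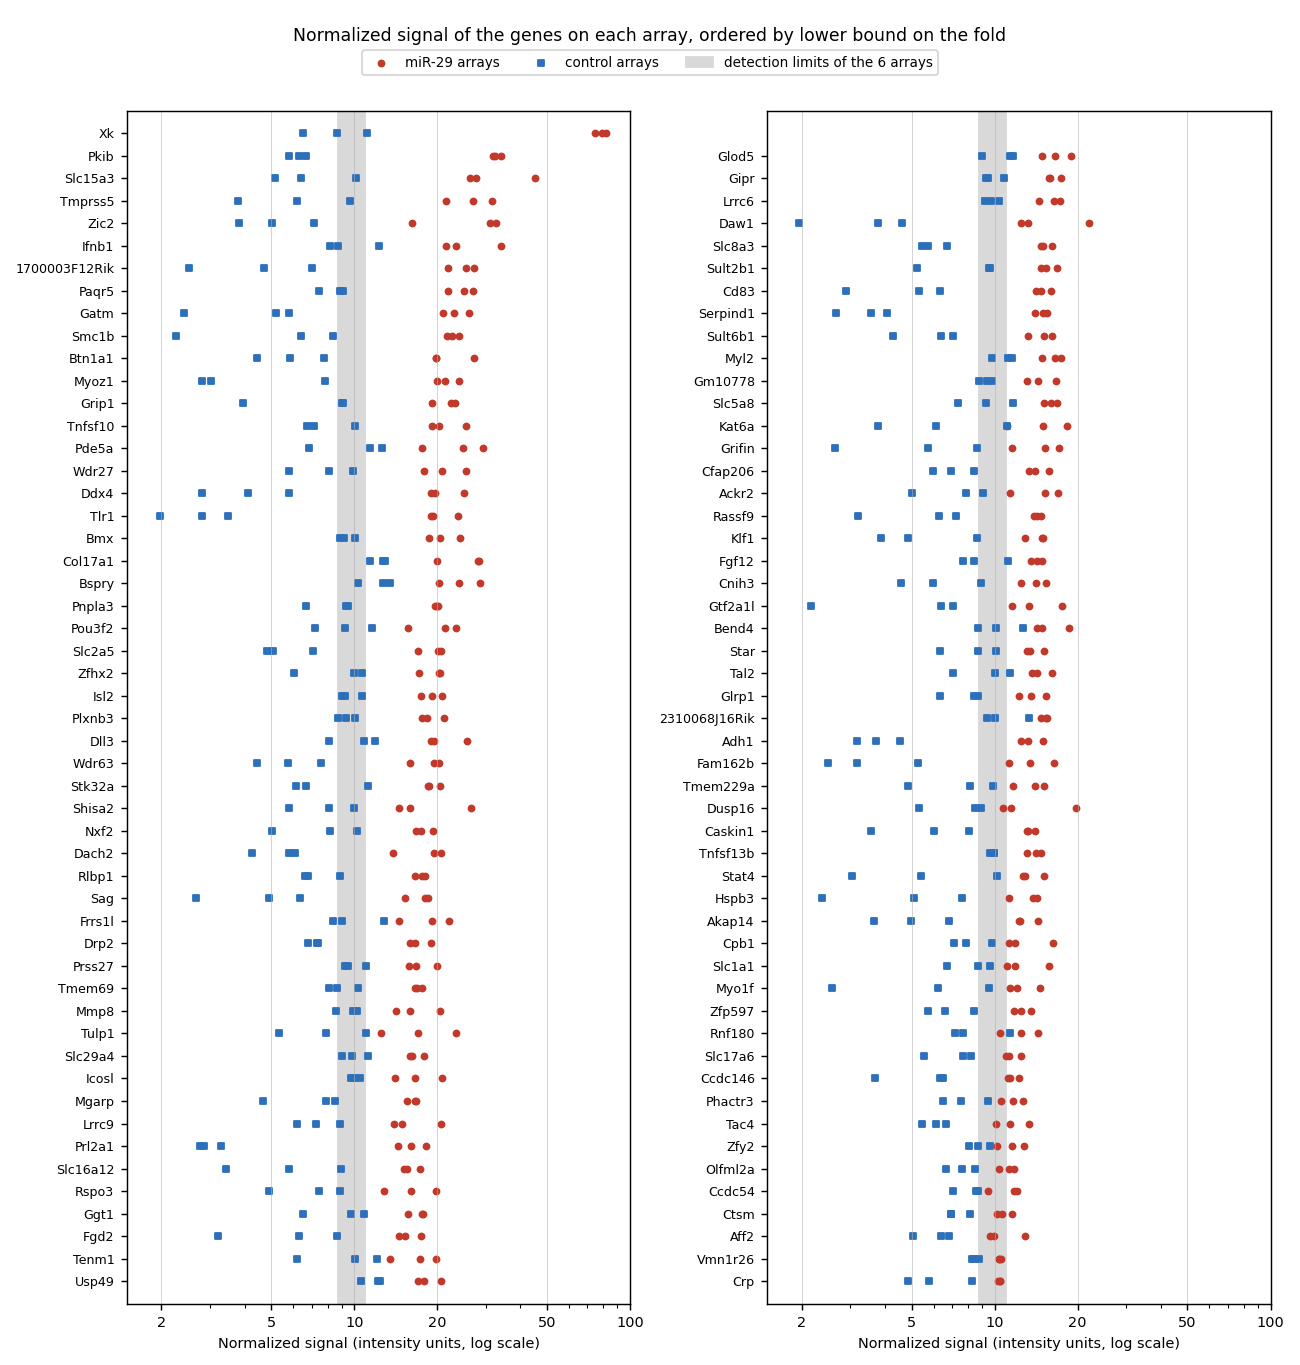
Normalized signal (log scale) of each of the 103 genes on each array, ordered by the lower bound on the fold, with miR-29 arrays as red circles, control arrays as blue squares and the range of the 6 detection limits (8.74 to 10.96) shaded. Xk stands apart at 74.5 to 81.9 on the miR-29 arrays.

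Because a control value under the limit is poorly measured, each fold is given as a lower bound. It is a bound for this scaling and background subtraction alone, and "at least" below refers to it. With other processing the difference can be smaller: for Xk it was 0.88 on the log2 scale with the normexp correction, against a bound of 2.94. The miR-29 values were themselves chosen for passing the flag, so the bound is no guaranteed minimum. The bound sets the mean of the 3 miR-29 values against the mean over control arrays of the higher of the gene's own value and that array's detection limit, all on the log2 scale. It ranged from 1.06 to 7.67 with a median of 1.58. It was at least 2 in 20 genes, from 1.5 up to 2 in 42 and under 1.5 in 41. In 5 genes (Col17a1, Bspry, Usp49, Glod5 and Myl2) the bound equals the measured fold. The measured fold, which uses the control values as they are, ranged from 1.23 to 9.13 with a median of 2.23. It was at least 2 in 62 genes and at least 4 in 14, where 3.38% and 0.167% of the 19730 genes and transcripts tested on these arrays rose that far. The median difference was 1.16 on the log2 scale for the 103 and 0.068 for all tested. In 102 of the 103 the groups did not overlap, against 39.9% of all tested that were higher without overlap. The exception was Rnf180, a ubiquitin ligase, with 10.4, 12.4 and 14.4 on the miR-29 arrays, against 11.4, 7.16 and 7.67 on the control arrays. These contrasts follow from the choice of the genes and are printed for scale only.

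**Figure D2:**
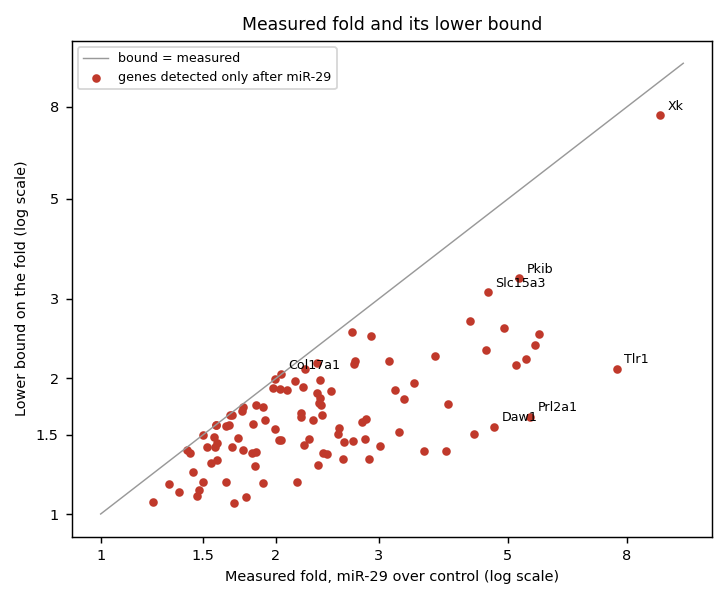
Lower bound on the fold (y axis) against the measured fold (x axis) for each gene, both miR-29 over control on log scales, with the line of equality. Most points lie under the line, since 244 of the 309 control values were under the limit, and 5 lie on it.

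Xk gave the largest contrast. It encodes a membrane protein that carries the Kx blood group antigen and pairs with the Kell protein on red cells, and its loss in humans gives McLeod syndrome, with changes in red cells, muscle and brain. Its normalized signal was 74.5, 79.0 and 81.9 on the miR-29 arrays, against 6.52, 11.2 and 8.69 on the control arrays. All 3 miR-29 values were far above every control value. The fold was at least 7.67 by the bound and 9.13 as measured. Of its other 2 probes, 1 was flagged on a single miR-29 array and differed by 1.96 on the log2 scale, and the other was flagged on none and differed by 0.20. The neighbouring protein-coding gene Lancl3 was detected on all arrays and was also higher after miR-29 (log2 difference 1.10, adjusted p = 0.00238 by limma). The neighbour on the other side, H2al1m, also detected on all arrays, differed by -0.029 (adjusted p = 0.875 by limma).

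The promoter window of Xk (250 bases before to 50 after its start, RefSeq, GRCm38.p6, chrX:9272534-9272833, plus strand) is shown because the gene had the largest bound. The CG dinucleotides are in capitals. It holds 39 of them, where the median of all 27025 genes with a window was 7, and 78% of its bases are G or C.
Xk: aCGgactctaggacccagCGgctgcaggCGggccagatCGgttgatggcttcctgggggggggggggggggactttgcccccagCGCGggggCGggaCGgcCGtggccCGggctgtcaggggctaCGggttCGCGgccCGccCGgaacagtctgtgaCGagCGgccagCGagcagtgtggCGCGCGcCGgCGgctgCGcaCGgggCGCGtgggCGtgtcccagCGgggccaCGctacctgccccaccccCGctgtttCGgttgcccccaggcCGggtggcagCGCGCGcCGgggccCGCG

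Pkib, an inhibitor of the cAMP-dependent protein kinase, followed. It had 34.02, 31.7 and 32.5 on the miR-29 arrays, against 6.69, 6.32 and 5.79 on the control arrays. Both groups were tight, with an SD of 0.0512 for miR-29 and 0.10 for control on the log2 scale. The fold was at least 3.33. A second probe of Pkib, flagged on no array, differed by 0.91 on the log2 scale. Its neighbour Fabp7, a fatty acid binding protein of glia, was 1.31 higher on the log2 scale (adjusted p = 2.91e-05 by limma). The neighbour on the other side, Serinc1, differed by -0.0020 (adjusted p = 0.977 by limma).

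Slc15a3, a lysosomal carrier of histidine and short peptides, had 27.6, 45.2 and 26.3 on the miR-29 arrays, against 6.405, 5.16 and 10.1 on the control arrays, at least 3.104-fold higher. One miR-29 array stood above the other two, and the groups did not overlap. Xk, Pkib and Slc15a3 were the only genes of the 103 with a bound of at least 3.

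**Figure D3:**
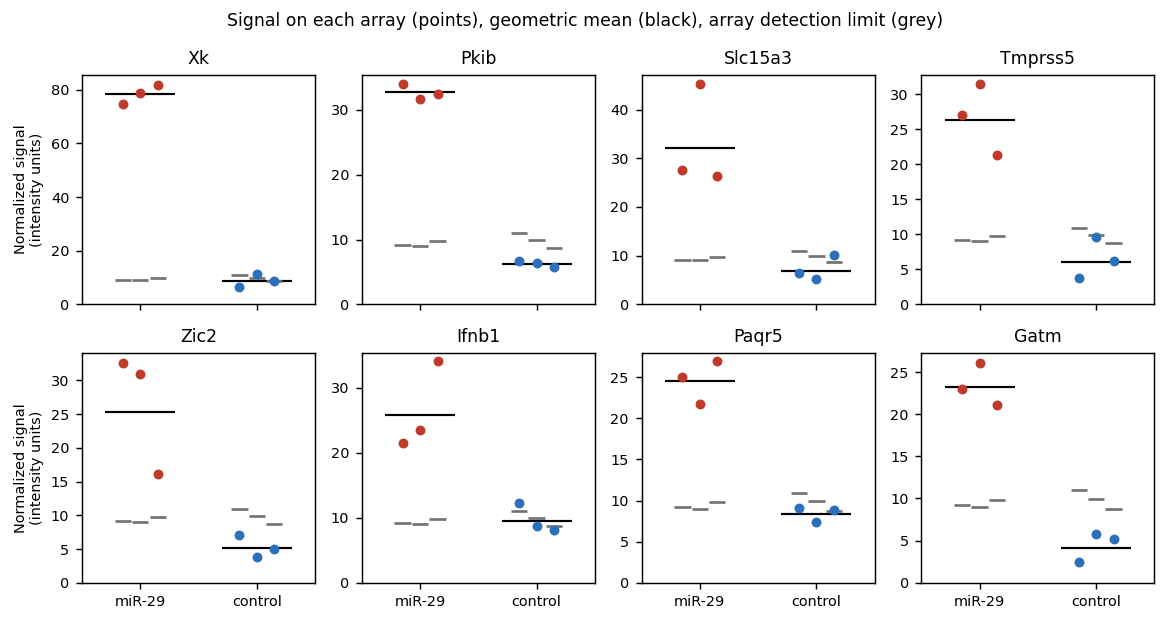
Normalized signal on each array for 8 of the genes with the largest lower bounds, with miR-29 arrays in red left of control arrays in blue, group means (geometric) as black lines and each array's detection limit as a grey dash. Pkib has the tightest pair of groups among the first 3, and Slc15a3 has 1 miR-29 array above the other two.

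For an overview, the 103 genes were sorted by their known roles after their values had been seen, into 12 groups of 3 to 14 genes, with 15 genes in none. The median bound of these groups lay between 1.43 (transcription and chromatin) and 1.99 (adhesion and matrix), beside 1.58 over all 103. Some placings are loose, such as Bspry under adhesion and matrix, Glod5 under metabolism and Xk among the carriers. In a group of 3 genes the median is the value of 1 gene. All but 1 of the 103 are protein-coding genes.

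Carriers and transporters made up 9 genes, with a median bound of 1.63, counting Xk, which is not an established solute carrier. Besides Xk and Slc15a3 they were Slc2a5 (fructose), Slc29a4 (monoamines and nucleosides), Slc16a12 (creatine), Slc8a3 (sodium-calcium exchange), Slc5a8 (monocarboxylates), Slc1a1 (neuronal glutamate uptake) and Slc17a6 (vesicular glutamate loading). Slc2a5 had 20.6, 20.2 and 17.1 on the miR-29 arrays, against 5.06, 7.08 and 4.84 on the control arrays, at least 1.96-fold higher. Its control values were all under the limit. Slc17a6, which marks glutamatergic neurons, was among the weakest. It had 10.998, 11.3 and 12.5 on the miR-29 arrays, against 8.19, 7.68 and 5.56 on the control arrays, at least 1.18-fold higher, and its other probe differed by 0.092 on the log2 scale. Slc1a1 was the only gene with several probes that were all flagged after miR-29. Its 2 probes differed by 0.63 and 0.72 on the log2 scale, and the bound of the brighter was 1.30.

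Of 513 carrier genes on the array by symbol, 8 (1.56%) belonged to the 103, beside 0.59% of all named genes. Of the other 358 tested, 111 were called higher and 124 lower (limma, adjusted p under 0.05), where 35.3% of all tested genes and transcripts were called higher and 22.8% lower. Calls thus went in both directions among the carriers. With spike-in scaling 46 were called higher and 185 lower, beside 3172 higher and 7203 lower over all tested.

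Genes of transcription and chromatin were the largest group, with 14 members and a median bound of 1.43. Zic2, a zinc finger factor of forebrain and cerebellar development, had 32.6, 31.0 and 16.1 on the miR-29 arrays, against 7.13, 3.83 and 5.02 on the control arrays, at least 2.58-fold higher. Its miR-29 array 3 was lower than the other two, yet above every control value. Pou3f2, a POU factor of neural progenitors and cortical neurons, had 23.3, 21.3 and 15.6 on the miR-29 arrays, against 11.6, 9.25 and 7.22 on the control arrays, at least 1.97-fold higher. Isl2, a LIM homeodomain factor of motor neurons, had 19.1, 17.4 and 20.7 on the miR-29 arrays, against 10.7, 9.04 and 9.25 on the control arrays, at least 1.90-fold higher. Both genes had 1 control value or more close to the detection limit, and neither overlapped between groups.

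Zfhx2 and Dach2 had bounds of 1.91 and 1.80. The other 9 were under 1.5: the erythroid factor Klf1 (1.45), Tal2 (1.41), the cytokine signalling factor Stat4 (1.36), the histone acetyltransferase Kat6a (1.47), the testis variant of a general factor Gtf2a1l (1.42), Bend4 (1.41), Zfp597 (1.28), the Y-linked Zfy2 (1.17) and Aff2 (1.09). Kat6a came nearest to overlap of these 9, with 11.09 as its lowest miR-29 value and 11.06 as its highest control value. Of 788 transcription factor genes by symbol, 7 (0.89%) belonged to the 103, beside 0.59% of all named genes. Of the other 583 tested, 193 were called higher and 122 lower. Those shares were near the 35.3% higher and 22.8% lower of all tested genes and transcripts. The split reversed with spike-in scaling, to 83 higher and 218 lower, as did that over all tested (3172 higher and 7203 lower).

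Immune genes made up 11, with a median bound of 1.66, and 4 of them reached 2. Ifnb1 encodes interferon beta, the antiviral cytokine made after sensing of foreign nucleic acid. It had 21.6, 23.5 and 34.03 on the miR-29 arrays, against 12.3, 8.73 and 8.13 on the control arrays, at least 2.53-fold higher. Array 3 was the highest of the miR-29 group, and control array 1 was above the limit though not flagged.

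The promoter window of Ifnb1 (RefSeq, GRCm38.p6, chr4:88522745-88523044, minus strand) is shown because it holds the letters TATAAA on the sense strand, in capitals, at 210 and 82 bases before the annotated start. Of all 27025 windows, 8.88% hold them on that strand.
Ifnb1: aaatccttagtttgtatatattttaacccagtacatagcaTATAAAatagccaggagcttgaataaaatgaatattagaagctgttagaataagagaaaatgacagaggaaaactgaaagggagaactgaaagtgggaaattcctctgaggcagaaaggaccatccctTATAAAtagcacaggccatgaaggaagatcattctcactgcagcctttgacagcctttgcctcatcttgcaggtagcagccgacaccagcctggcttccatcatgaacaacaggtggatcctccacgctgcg

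Tnfsf10, the death ligand TRAIL, had 20.3, 25.5 and 19.1 on the miR-29 arrays, against 10.1, 7.16 and 6.73 on the control arrays, at least 2.19-fold higher. Tlr1, a receptor for bacterial lipopeptides together with Tlr2, had 19.4, 19.1 and 23.8 on the miR-29 arrays, against 2.81, 3.49 and 1.97 on the control arrays. The control values of Tlr1 were all far under the limit, so the measured fold of 7.69 was far above the bound of 2.10. Btn1a1, a butyrophilin of milk fat globules, had a bound of 2.24. The others were the B cell factor Tnfsf13b (1.36), the costimulatory ligand Icosl (1.66), the dendritic cell marker Cd83 (1.52), the scavenging chemokine receptor Ackr2 (1.46), the neutrophil collagenase Mmp8 (1.69), the leukocyte myosin Myo1f (1.28) and the acute phase protein Crp (1.06).

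The immune genes that were not among the 103 were more often called lower than higher. Of 192 tested genes of immune receptors and antigens, 31 were called higher and 79 lower, and of 96 tested cytokines, chemokines and their receptors, 21 were called higher and 32 lower. Over all tested genes and transcripts, 35.3% were called higher and 22.8% lower. By symbol, immune receptors and antigens gave 4 of 445 genes to the 103 (0.90%). Cytokines, chemokines and their receptors gave 4 of 199 (2.01%), beside 0.59% of all named genes. The summed normalized signal of the 13 microglia and macrophage markers was 1829 to 1980 after miR-29 and 2445 to 2719 in control. Those ranges did not overlap, with the lower values after miR-29. Most of each sum came from Tmem119, which averaged 1760 after miR-29 and 2374 in control. Of the 4 tested markers, 1 (P2ry12) was called higher and 2 lower. The part of these markers in these results was not tested.

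Genes of cilia, sperm and meiosis made up 10, with a median bound of 1.57. Smc1b, a cohesin subunit of meiosis, had 21.7, 22.5 and 23.9 on the miR-29 arrays, against 6.39, 8.37 and 2.27 on the control arrays, at least 2.31-fold higher. The miR-29 values were tight, and the control values spread over an SD of 0.99 on the log2 scale. Ddx4, the Vasa RNA helicase of germ cells, had 24.9, 18.9 and 19.6 on the miR-29 arrays, against 5.81, 2.81 and 4.10 on the control arrays, at least 2.14-fold higher. Its groups did not overlap, and all control values were under the limit.

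Ddx4 was the only one of 11 germ line markers on the array that was among the 103. Dazl, Sycp1, Stra8, Mael and Akap4 were detected on no array, and of the 5 tested markers besides Ddx4, 0 were called higher and 0 lower by limma. At an unadjusted p under 0.05, 1 of these 5 passed. The remaining members of the role group were Wdr63 (1.88), Daw1 (1.56), Lrrc6 (1.57) and Cfap206 (1.46), which serve the assembly or movement of motile cilia, Nxf2 (1.81), an export factor for messenger RNA in germ cells, Akap14 (1.32), Ccdc146 (1.18) and Ccdc54 (1.12). Among cilium, flagellum and spermatogenesis genes by symbol, 239 others were tested, and 119 were called higher and 29 lower, with a median difference of 0.24 on the log2 scale. The shares over all tested were 35.3% higher and 22.8% lower. With spike-in scaling the split among these genes narrowed to 67 higher and 47 lower, beside 3172 and 7203 over all tested. The summed signal of 11 markers of ependyma and choroid plexus was 3043 to 3234 after miR-29 and 2344 to 2503 in control, without overlap. Clic6 alone averaged 1840 after miR-29 and 1167 in control. With spike-in scaling, 2 of the 8 tested markers were called higher and 2 lower. The part of this list in these results was not tested.

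The promoter window of Ddx4 (RefSeq, GRCm38.p6, chr13:112652261-112652560, minus strand) holds 38 CG dinucleotides, in capitals, and is shown because Ddx4 was the only germ line marker among the 103. The windows of other genes with a bound of at least 2 lay on both sides of the median of 7 over all genes. Smc1b and Wdr27 had 29, Pde5a 23, Gatm 22 and Paqr5 21. Pkib had 7, Tnfsf10 6, Col17a1 5, Bmx 4, Ifnb1 and Tlr1 3, 1700003F12Rik 2, and Tmprss5 and Grip1 1.
Ddx4: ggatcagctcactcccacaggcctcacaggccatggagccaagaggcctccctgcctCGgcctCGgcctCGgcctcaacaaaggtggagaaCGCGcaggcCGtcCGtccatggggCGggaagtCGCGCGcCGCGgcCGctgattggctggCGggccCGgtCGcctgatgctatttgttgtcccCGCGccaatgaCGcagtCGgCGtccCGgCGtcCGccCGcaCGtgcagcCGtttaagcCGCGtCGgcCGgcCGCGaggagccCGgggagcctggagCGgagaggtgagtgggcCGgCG

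Genes of receptors, synapse and guidance made up 10, with a median bound of 1.58, and 1 of them reached 2. Grip1, a scaffold that binds AMPA-type glutamate receptors, had 22.4, 23.2 and 19.1 on the miR-29 arrays, against 9.11, 9.06 and 3.95 on the control arrays, at least 2.19-fold higher. Plxnb3, a semaphorin receptor, had 17.6, 18.4 and 21.1 on the miR-29 arrays, against 10.1, 8.73 and 9.30 on the control arrays, at least 1.89-fold higher. Cnih3 (1.42) and Frrs1l (1.75), both auxiliary proteins of AMPA receptors, were present as well, beside the teneurin Tenm1 (1.58), the dystrophin-related Drp2 (1.74), the intracellular growth factor homologue Fgf12 (1.44), the synaptic scaffold Caskin1 (1.36) and the tachykinin Tac4 (1.17).

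Gipr, the receptor of the gut hormone GIP, was the other gene with more than 1 flagged probe, and its probes disagreed in size. The flagged probe with the higher mean over all 6 arrays, which stands for the gene here, had 15.7, 15.8 and 17.4 on the miR-29 arrays, against 9.31, 10.8 and 9.48 on the control arrays, at least 1.57-fold higher. The second flagged probe averaged 20.5 after miR-29 and 2.43 in control, a measured log2 difference of 3.08 and a bound of 2.08, and it was the brighter of both after miR-29. Another probe was flagged on no array and differed by 0.087.

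The neuronal markers as a list did not follow. Of 15 tested markers besides Slc17a6, 3 were called higher and 6 lower, and the summed normalized signal of the list was 56825 to 77499 after miR-29 and 62228 to 83423 in control, which overlap. Ion channel genes and neurotransmitter-gated receptors gave 0 of 201 and 0 of 58 genes to the 103. Since 0.59% of all named genes belonged to it, 0 in lists this small says little.

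Signalling enzymes and regulators made up 8, with a median bound of 1.74. Besides Pkib, Pde5a, which breaks down cyclic GMP, had 29.4, 24.7 and 17.6 on the miR-29 arrays, against 12.6, 11.4 and 6.87 on the control arrays, at least 2.17-fold higher. Bmx, a Tec-family tyrosine kinase, had 18.7, 20.4 and 24.2 on the miR-29 arrays, against 8.86, 10.04 and 9.18 on the control arrays, at least 2.09-fold higher. In both genes the 2 groups did not overlap, and in Pde5a the values of control arrays 1 and 2 were above their limits. Stk32a (1.87), the Cdc42 exchange factor Fgd2 (1.60), Rassf9 (1.45), the MAP kinase phosphatase Dusp16 (1.37) and Phactr3 (1.18) were lower in the order.

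Genes of lipid, steroid and amino acid metabolism made up 9, with a median bound of 1.58. Paqr5, a membrane progesterone receptor, had 25.1, 21.8 and 27.0 on the miR-29 arrays, against 9.07, 7.43 and 8.85 on the control arrays, at least 2.48-fold higher. A second probe of Paqr5 was flagged on no array and differed by -0.068 on the log2 scale. Gatm, the first enzyme of creatine synthesis, had 22.9, 26.1 and 21.0 on the miR-29 arrays, against 2.41, 5.81 and 5.20 on the control arrays. Its control values were all far under the limit, so the bound was 2.37 and the measured fold 5.58. The others were Pnpla3 (1.99), Ggt1 (1.61), Glod5 (1.58), the sulfotransferases Sult2b1 (1.54) and Sult6b1 (1.504), the cholesterol carrier Star (1.41) and Adh1 (1.38).

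Proteases and their inhibitors made up 5. Tmprss5, a transmembrane serine protease, had 27.0, 31.5 and 21.4 on the miR-29 arrays, against 3.79, 9.64 and 6.22 on the control arrays, at least 2.68-fold higher. The groups did not overlap, although the control values spread over an SD of 0.68 on the log2 scale. Prss27 (1.73), the thrombin inhibitor Serpind1 (1.51), Cpb1 (1.32) and the placental cathepsin Ctsm (1.09) followed. With Mmp8, 6 of 306 protease and inhibitor genes by symbol (1.96%) were among the 103, beside 0.59% of all named genes. Of the other 136 tested, 23 were called higher and 61 lower, where 35.3% of all tested were called higher and 22.8% lower.

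The muscle genes were Myoz1 (2.21) and Myl2 (1.5004), proteins of the sarcomere, and the small heat shock protein Hspb3 (1.33). Myoz1 had 21.4, 24.03 and 19.99 on the miR-29 arrays, against 2.80, 7.86 and 3.02 on the control arrays, and its second probe, flagged on no array, differed by 0.53 on the log2 scale. Of 72 other tested genes of muscle contractile proteins by symbol, 40 were called higher and 10 lower, with a median of 0.27. The shares over all tested were 35.3% higher and 22.8% lower. With spike-in scaling the split among the muscle genes was 23 higher and 19 lower, beside 3172 and 7203 over all tested. The summed signal of 17 skeletal and cardiac muscle markers was 25805 to 28807 after miR-29 and 19279 to 24021 in control, without overlap, and its part in these results was not tested. Other lists also differed without overlap. Higher after miR-29 were the sums for fibroblasts, meninges and mural cells (370802 to 398297 against 337412 to 364041) and for astrocytes. Lower were those for endothelium (1151 to 1188 against 1625 to 1834) and epithelium (2062 to 2240 against 2549 to 2732).

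Known from the retina were the retinoid carrier Rlbp1 (1.76), which is also made by glia, the arrestin Sag (1.75) and Tulp1 (1.68). The developmental ligands and modulators were the Notch ligand Dll3 (1.89), Shisa2 (1.86) and the Wnt enhancer Rspo3 (1.61). Dll3 had 18.9, 25.6 and 19.5 on the miR-29 arrays, against 8.10, 11.9 and 10.8 on the control arrays.

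The group named adhesion and matrix held Col17a1, Bspry (1.99) and Olfml2a (1.13). Bspry is not an established adhesion or matrix protein, and the group's median of 1.99 is its value. Col17a1, the transmembrane collagen of hemidesmosomes, had 28.3, 28.1 and 19.9 on the miR-29 arrays, against 12.9, 12.7 and 11.4 on the control arrays, 2.04-fold higher with every control value above the limit. A second probe of Col17a1 was flagged on no array and differed by 0.091 on the log2 scale. Known miR-29 targets, collagens among them, mostly went the other way. Of 33 tested targets described in other systems, 25 were called lower and 1 higher, with a median of -0.98. The gene called higher was Igf1 (log2 difference 1.66, adjusted p = 3.37e-05 by limma). Dnmt3a and Dnmt3b were not lower here. They differed by 0.081 (adjusted p = 0.418 by limma) and 0.17 (adjusted p = 0.345 by limma) on the log2 scale.

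Among the genes in no role group, Wdr27, a WD-repeat protein, had 17.9, 20.8 and 25.4 on the miR-29 arrays, against 5.80, 9.90 and 8.12 on the control arrays, at least 2.15-fold higher. The groups did not overlap. The transcript 1700003F12Rik had a bound of 2.51, and Vmn1r26, a vomeronasal receptor, had the bound 1.06, as low as that of Crp.

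Gene families gave few members each, and the share over all named genes was 0.59%. G protein-coupled receptors gave 2 of 427 genes (Gipr and Vmn1r26), growth factors and hormones 3 of 206 (Fgf12, Prl2a1 and Tac4), adhesion and junction proteins by symbol pattern 3 of 332 (Plxnb3 and, only by their leucine-rich repeat symbols, Lrrc6 and Lrrc9), xenobiotic, steroid and retinoid enzymes 3 of 257 (Adh1, Sult2b1 and Sult6b1), and regulators of small GTPases and G proteins 1 of 298 (Fgd2). Keratins and epidermal proteins gave 0 of 132. Prl2a1, a prolactin-family hormone of the placenta, had 14.4, 16.0 and 18.2 on the miR-29 arrays, against 3.28, 2.76 and 2.85 on the control arrays, at least 1.64-fold higher. Its control values were all far under the limit. Of the other tested genes, 22 were called higher and 57 lower among 149 G protein-coupled receptors, 26 and 40 among 122 growth factors, 56 and 73 among 217 adhesion genes, and 45 and 38 among 143 xenobiotic enzymes. The calls were 90 higher and 64 lower among 259 GTPase regulators, 32 and 28 among 109 ion channels, 2 and 5 among 26 neurotransmitter-gated receptors, and 6 and 18 among 54 keratins. Over all tested genes and transcripts, 35.3% were called higher and 22.8% lower. Spike-in scaling turned the calls over all tested, from 6970 higher and 4493 lower to 3172 and 7203. With it the split also reversed among GTPase regulators (39 higher and 99 lower), ion channels (18 and 45) and xenobiotic enzymes (22 and 63). It was 10 and 84 among G protein-coupled receptors, 17 and 55 among growth factors, 24 and 102 among adhesion genes, 2 and 9 among neurotransmitter-gated receptors and 4 and 21 among keratins.

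Markers of other cell types gave none of the 103 apart from Slc17a6 and Ddx4. Called higher and lower were 9 and 2 of 15 astrocyte markers, 5 and 3 of 11 for the oligodendrocyte lineage, 1 and 2 of 4 for microglia, 2 and 3 of 6 for endothelium, and 6 and 4 of 13 for fibroblasts and mural cells. They were 3 and 1 of 8 for ependyma and choroid plexus, 4 and 2 of 11 for skeletal and cardiac muscle, and 4 and 6 of 15 for the DNA methylation machinery. Of 7 epithelial markers 4 were called lower and the other 3 did not pass. Of 12 endothelial markers, Tek, Tie1 and Erg were detected on no array, and Cdh5, Flt1, Slco1a4 and Ly6c1 on all 6. With spike-in scaling, 5 astrocyte markers were called higher and 2 lower, and the split was 5 and 4 for the oligodendrocyte lineage, 0 and 3 for microglia, 1 and 3 for endothelium and 5 and 4 for fibroblasts and mural cells. It was 2 and 2 for ependyma, 1 and 3 for skeletal and cardiac muscle, which reversed, and 1 and 7 for DNA methylation. The calls over all 19730 tested reversed too, from 6970 higher and 4493 lower to 3172 and 7203.

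The evidence for a gene mostly came from a single probe. Of the 103 genes, 78 had 1 probe on the array and 25 had more. In 2 of these 25 (Gipr and Slc1a1), at least 2 probes were flagged on all miR-29 arrays. The other 29 probes of the 25 genes had a median log2 difference of 0.20. Of them 22 were flagged on no miR-29 array, 20 were higher after miR-29, and 5 were at least 2-fold higher. For Usp49, a ubiquitin protease, the second probe went the other way, with -0.32 on the log2 scale. A probe that lies under the limit in both groups says little about its gene.

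The values at the edge of the rule were as follows. Just inside, the lowest miR-29 value was 1.03 times the limit for Ccdc54 and 1.04 times for Tac4 and for Aff2. Ccdc54 had 9.49, 12.01 and 11.7 on the miR-29 arrays, against 7.07, 8.52 and 8.71 on the control arrays. Just outside, 75 genes were flagged on 2 miR-29 arrays and no control array, with a median log2 difference of 0.80. Of these Prokr1, a prokineticin receptor with the largest difference of the 75, had 12.03, 14.4 and 9.02 on the miR-29 arrays, against 2.35, 2.06 and 1.82 on the control arrays. Another 78 genes were flagged on 3 miR-29 arrays and 1 control array, with a median of 0.75. Fam131b, with the largest difference of the 78, had 41.8, 35.1 and 33.1 on the miR-29 arrays, against 9.11, 7.82 and 13.9 on the control arrays, and was left out because 1 control array carried the flag. Neither gene overlapped between groups, and both medians were under the 1.16 of the 103.

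The replicates of the 103 genes spread more than those of a typical gene. The median SD on the log2 scale was 0.15 within the miR-29 arrays and 0.34 within the control arrays, against 0.0692 and 0.0949 over all tested genes and transcripts. The highest miR-29 value lay on array 1 for 28 genes, on array 2 for 37 and on array 3 for 38, and the highest control value on array 1 for 41, on array 2 for 46 and on array 3 for 16. Against control array 1 alone, the only one on the slide of the miR-29 arrays, all 103 genes were higher after miR-29, with a median log2 difference of 1.10. The choice of the genes all but fixed this, since each was unflagged on that array and flagged on every miR-29 array. It is therefore no check on the slides. That control array also had the fewest spots well above background, 62.5%.

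The size of the difference changed with the processing. With the normexp correction, which started from the median spot signal, modelled the background and added an offset of 50, the median log2 difference of the 103 was 0.18 and 0 of them were 2-fold higher. Scaling to spike-in probes gave 0.92 with 47 genes 2-fold higher, and this scaling put the median of all tested at -0.17 beside 0.068 with the 75th percentile. Over all tested it called 3172 higher and 7203 lower, beside 6970 and 4493. All 103 were higher after miR-29 under each scaling and correction tried, which the choice of the genes on the same spots made likely from the start. Some differences were close to none, such as 0.063 for Vmn1r26 with spike-in scaling and 0.053 for Slc5a8 with normexp.

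**Figure D4:**
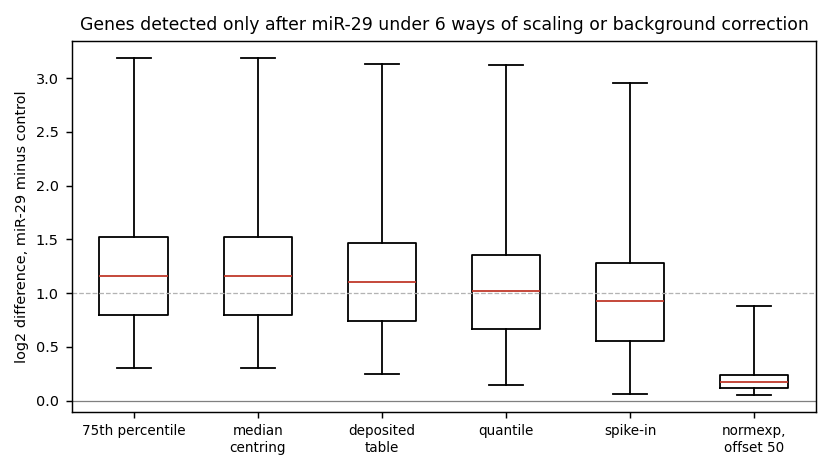
Log2 difference, miR-29 minus control, of the 103 genes under 6 ways of scaling or background correction, as boxes of quartiles with the median in red and whiskers to the lowest and highest gene. The medians are 1.16 for 75th percentile scaling, 1.16 for median centring, 1.11 for the deposited table, 1.02 for quantile, 0.92 for spike-in scaling and 0.18 for normexp.

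In the genome the 103 genes were scattered. No pair of them lay within 5 protein-coding genes of each other in the order of the reference (GRCm38.p6). Of 132 directly adjacent genes that were tested, 55 were called higher (41.7%) and 36 lower, with a median of 0.083. Over all tested, 35.3% were called higher and 22.8% lower, with a median of 0.068. Chromosome X carried 10 of the 103 (9.71%): Aff2, Akap14, Bmx, Dach2, Drp2, Glod5, Nxf2, Plxnb3, Tenm1 and Xk. It carried 662 of the 17458 named genes (3.79%), 3.36% of those detected on all arrays, 5.65% of those detected on none, and 0 of the 35 detected only in control. These shares are a description with no test.

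A RefSeq promoter window was given for 86 of the 103 genes (83.5%). The median number of CG dinucleotides was 9 in these 86 windows and 7 in the windows of all 27025 genes, with quartiles of 3.25 to 20 and 3 to 21. At least 10 were found in 42 of the 86 (48.8%), against 43.9% of all. The letters TATAAA stood on the sense strand in 10 of the 86 (11.6%), against 8.88% of all, and on either strand in 16 (18.6%), against 14.2%. In Crp, Tal2 and Ctsm they stood 31, 30 and 27 bases before the start. The count of CG dinucleotides ran over 0 to 42 in these windows and 0 to 65 in those of all genes.

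**Figure D5:**
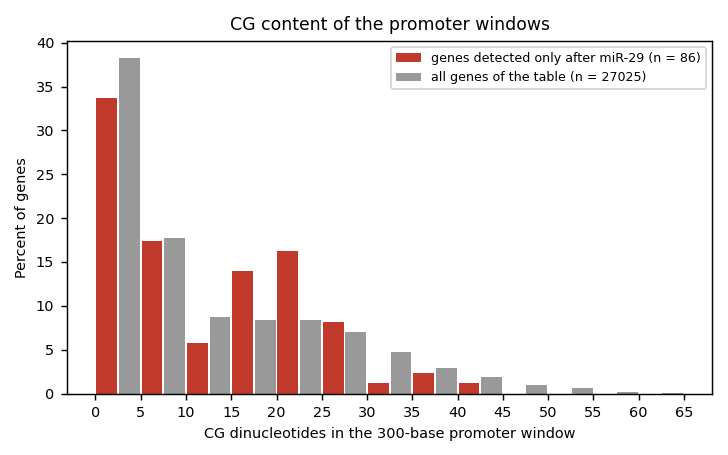
Percent of genes (y axis) by number of CG dinucleotides in the 300-base promoter window (x axis), for the 86 genes with a window in red and all 27025 genes in grey. The medians are 9 and 7, and the 2 distributions overlap over most of their range.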

How the data were processed

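The data were 6 one-colour arrays, 3 per group, grouped by the sample titles. Per the file headers, Agilent Feature Extraction 10.7.3.1 read each spot's intensity and took off the local background (the submitters' processing notes give version 10.7). The value table deposited by the authors held the same intensity times 1 factor per array, 2.63 to 3.43, and the sources used here do not give its rule.

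Processed signals were scaled to each array's 75th percentile, floored at 1 and taken to log2 after dropping spots flagged as outliers and averaging the spots of each probe. Accessions were matched without version to RefSeq (GRCm38.p6): 26925 of 41174 probes matched 1 gene and 14249 none. The array design is on mm9, so coordinates printed are those of the RefSeq sequences. A gene's probe was flagged on an array after miR-29 where all its spots were, and unflagged in control where no spot was.

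For all other genes, lmFit and eBayes of limma 3.58.1 (R 4.3.3) compared the groups, two-sided, over 19730 genes and transcripts with a probe well above background on all 3 arrays of a group, with p-values adjusted by Benjamini-Hochberg and a threshold of 0.05. The procedure was tested on simulated data. Families came from 15 symbol patterns and markers from 12 lists. The genes, the lists and the rule for naming genes were chosen with earlier results of these data known. The genes named were the 20 with the largest bound, up to 4 per family, those in a marker list, those with several flagged probes and those at the edge of the rule, and others were named by role after their values were seen. Normexp used the median spot signal, since no mean signal column was in the files. There were 0 columns of other samples. The same-numbered arrays of the 2 groups deviated together with correlations of 0.13, 0.094 and 0.25, so the numbers were not taken as pairs. The number of arrays limits the precision.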

Additional observations from a re-analysis of the deposited data

How the results depend on the processing

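The number of genes detected only after miR-29 was 103, and 107 to 147 with 1 array of the 6 left out, which relaxes the rule, so that the count could only rise and all 103 had to stay. It was 164 where only the flagged probe had to be unflagged in control, 318 within slide 1 (control array 1 alone), 62 with a bound of at least 1.5 and 20 with a bound of at least 2. With the weaker positive-and-significant flag in place of the well-above-background flag it was 91, and 0 of these were among the 103. It was 70 with signals required to lie on opposite sides of the highest limit, 103 with outlier spots left out or Olfr symbols kept, and 110 where any spot of a probe sufficed, a setting chosen after seeing the data.

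The median log2 difference was 1.16. It was 0.18 with normexp, 1.02 with quantile normalization and 0.92 with spike-in scaling, 1.11 to 1.24 with 1 array left out, and 1.06 to 1.24 over the 12 settings that moved it less than the replicate spread. Genes called higher numbered 6970, and 3172 with spike-in scaling. Genes called lower numbered 4493, and 7203 with spike-in scaling. The other settings gave 5240 to 7421 higher and 3217 to 5732 lower, and with 1 array left out 5672 to 7421 and 3675 to 5732. The cause of these shifts was not tested. With the replicate number as a block, the median was 1.16, and 6996 were called higher and 4529 lower. Each array's deviation correlated best with that of its own number, a hint from the data and not from the design. Signals close to background limit all values of the 103 genes.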
